A study of Saccharomyces cerevisiae with 12 samples.

Results

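The genes described here are 33 budding yeast (Saccharomyces cerevisiae) genes that build, maintain and pass on the peroxisome, together with several of its enzymes and the activators of its genes. They were listed by symbol for their role in the peroxisome: 24 peroxins (PEX genes), the inheritance genes INP1 and INP2, the peroxisomal carrier gene ANT1, the enzyme genes IDP3, TES1, MDH3 and LPX1, and the transcription factor genes PIP2 and OAF1. All 33 had exactly 1 probe set on the array, of 5656 genes with a probe set of their own.

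Peroxisomes are single-membrane organelles and, in this yeast, the only site of fatty acid beta-oxidation. Peroxins bring folded proteins into the matrix through cycling receptors, insert the membrane proteins, and set the number and size of the organelles. Cells grown on a fatty acid such as oleate make many peroxisomes, and the heterodimer of Oaf1 and Pip2 activates many of the genes concerned through the oleate response element, while glucose represses them.

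Transcripts were measured on 12 Affymetrix yeast genome arrays from glucose-limited chemostats (dilution rate 0.1 per h, 30 °C, pH 5.0), with 3 cultures in each of 4 groups. IMZ383 grew without oxygen and lacks both acetyl-CoA synthetase genes (acs2::HIS3, acs1::LEU2), with the plasmid pUDE204 (URA3, pflB, pflA). Its control was the prototrophic strain CEN.PK113-7D (MATa MAL2-8C SUC2), also without oxygen. IMZ305 grew with air and lacks ACS1, ACS2 and 5 acetaldehyde dehydrogenase genes (ald2-ald3::LEU2, ald4::HIS3, ald5::KanMX4, ald6::hphNT1, acs2::natNT2, acs1::AmdS), with pUDE151 (URA3, Escherichia coli eutE), and its control was CEN.PK113-7D with air. Both engineered strains were made in CEN.PK102-12A (MATa MAL2-8C SUC2 with ura3, leu2 and his3 mutations), so each strain effect joins the deletions, the plasmid and the markers. The feed held 20 g/L glucose with 10 mg/L ergosterol and 420 mg/L Tween 80, an oleate ester, in the cultures without oxygen, and 7.5 g/L glucose without these additions in those with air, so oxygen and medium cannot be told apart. Antifoam also differed along with oxygen.

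Values are the deposited signals, in the submitters' linear units, scaled to the same trimmed mean on every array. Background was read from bacterial and mouse probe sets that yeast RNA should not bind: their maximum on an array ran between 2.6 and 7.5, and 74.1% to 84.9% of yeast probe sets exceeded it. The labels were checked on the deleted genes: ACS1 averaged 0.433 in IMZ383 against 108 ± 15.4 in CEN.PK113-7D without oxygen, and 0.4 ± 0.1 in IMZ305 against 2047 ± 959 in CEN.PK113-7D with air (SD, n = 3). The hybridization control BioB read 42.9 to 86.2 in IMZ383, 62.1 to 72.0 in the anaerobic CEN.PK113-7D, 7.9 to 11.9 in IMZ305, and 8.6, 12.0 and 59.9 in the aerobic CEN.PK113-7D, so it moved with oxygen apart from 1 array. A fit with BioB as a term is set by that array, replicate 3 of CEN.PK113-7D with air, alone, so the part of BioB in the results was not tested. A change in some cells and a change in all cells cannot be told apart in bulk RNA, and probe set signals are compared only within a gene.

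**Figure D1:**
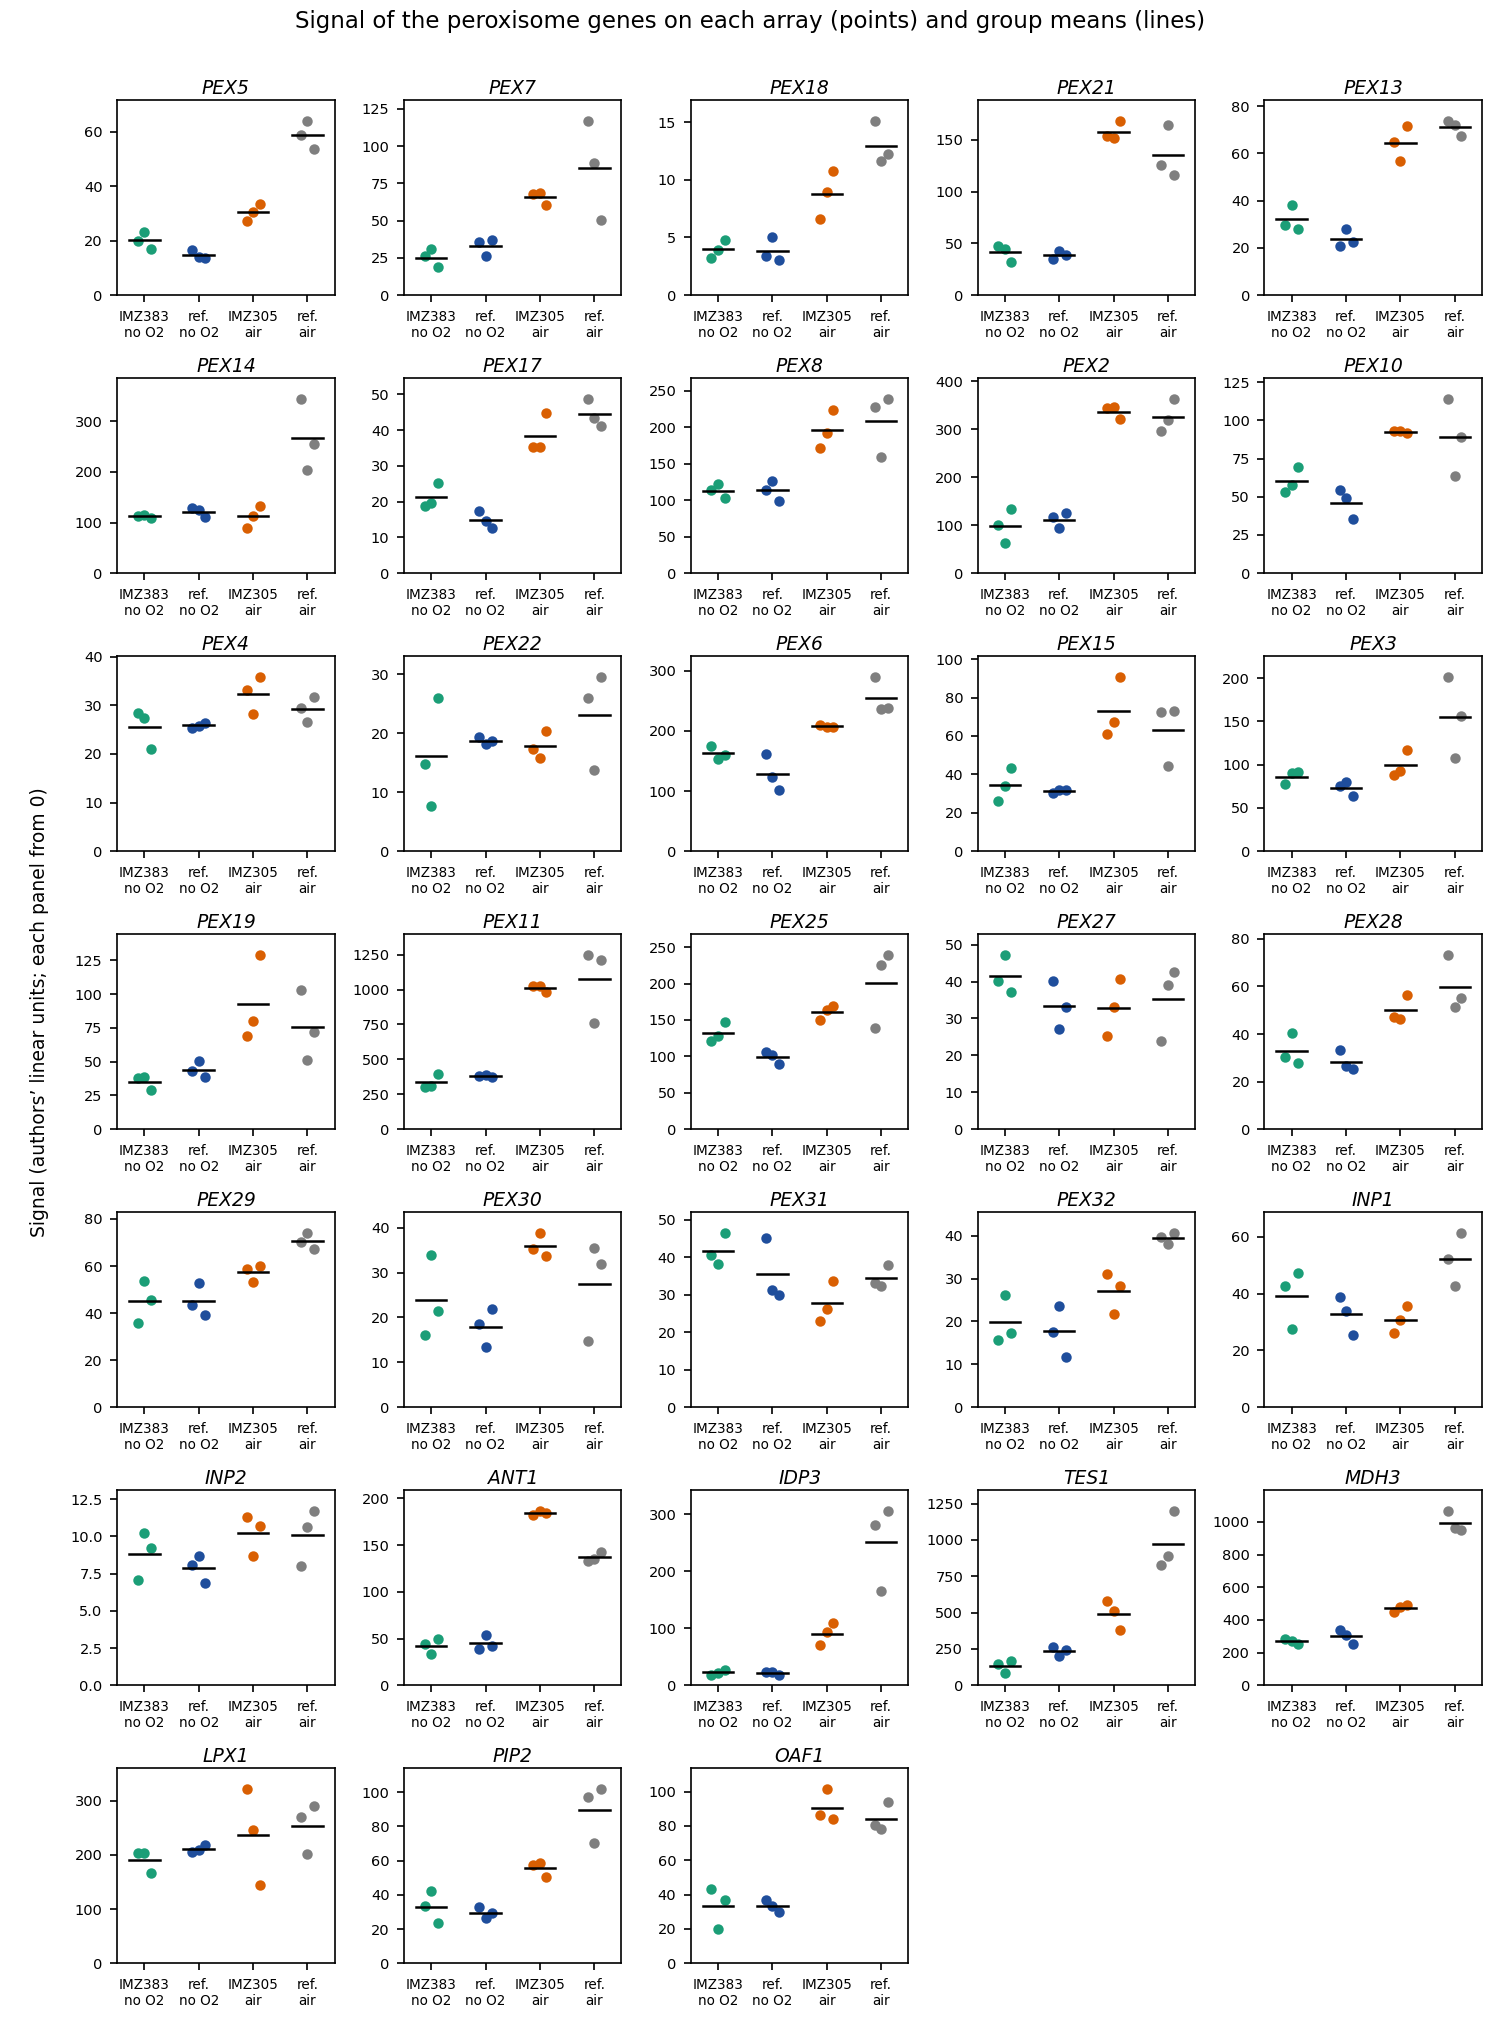
Signal of each of the 33 genes (vertical axis, the submitters' linear units, from 0) on every array (points) in the 4 groups, with the group mean as a line. In 19 of 33 genes all 6 arrays with air lie above all 6 arrays without oxygen, a larger share than the 12.3% of all probe sets.

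The group with the highest mean was CEN.PK113-7D with air for 21 genes, IMZ305 for 10 and IMZ383 for 2 (PEX27 and PEX31), and in no gene was it CEN.PK113-7D without oxygen. In 19 of 33 genes all 6 arrays with air read higher than all 6 arrays without oxygen, a larger share than the 12.3% of all probe sets. All 4 groups were fully separate in 2 of 33 genes, against 2.5% of all probe sets, a count too small to set these genes apart. PEX5 was highest in CEN.PK113-7D with air, then IMZ305, then IMZ383, then CEN.PK113-7D without oxygen. TES1 had the same order except that IMZ383 came last.

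The first comparison asked how the peroxisome genes of IMZ305 differed from those of CEN.PK113-7D under aeration. 5 of the 33 genes fell and 0 rose, by limma with Benjamini-Hochberg adjustment over all 9275 yeast probe sets at an adjusted p under 0.05. The 5 were the import receptor gene PEX5, the docking gene PEX14, and the enzyme genes MDH3, IDP3 and TES1, by 1.93-fold to 2.71-fold. The share called, 15.2%, lay close to the 14.4% of all probe sets called in this comparison. With 1 probe set per gene, 18.2% of 5656 genes were called. The number called in either direction thus shows nothing particular to peroxisome genes. All 5 were lower, where 8.3% of all probe sets were lower and 6.09% higher, and 11% of the 5656 genes were lower. Whether the direction is particular to peroxisome genes was not tested. Of the 33 genes, 10 had an unadjusted p under 0.05. The median log2 change was -0.25 over the 33 genes and 0.0 over all probe sets.

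PEX5 encodes the cycling receptor that binds the carboxy-terminal signal carried by most matrix proteins. PEX5 read 27.1, 30.6 and 33.5 in IMZ305, against 58.7, 63.9 and 53.6 in CEN.PK113-7D. Every IMZ305 culture lay below every control culture, with a log2 change of -0.95 (SE 0.14, limma adjusted p = 0.00275). PEX7, the receptor for the amino-terminal signal, and its co-receptor gene PEX21 were not called, with log2 changes of -0.29 and 0.24. PEX18, the other co-receptor gene, read 6.6 to 10.8 in IMZ305 and 11.6 to 15.1 in CEN.PK113-7D, without overlap, and was not called (log2 change -0.58, limma adjusted p = 0.159).

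PEX14 encodes the docking protein at the membrane to which loaded receptors bind, and it was the peroxin with the largest change in IMZ305. It read 89.7, 112.6 and 133.6 in IMZ305, against 344.1, 203.7 and 254.4 in CEN.PK113-7D. The groups did not overlap, although the control cultures differed among themselves, and the log2 change was -1.24 (SE 0.20, limma adjusted p = 0.0038), a 2.36-fold lower signal. The other docking genes were not called: the log2 change was -0.15 for PEX13 (95% interval -0.49 to 0.20) and -0.21 for PEX17 (-0.58 to 0.16).

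The matrix enzymes held the other called genes. MDH3, the peroxisomal malate dehydrogenase that reoxidises NADH formed in beta-oxidation, read 447.0, 476.8 and 493.7 in IMZ305, against 1066.0, 959.5 and 948.3 in CEN.PK113-7D. Its replicates were tight and wide apart between strains, with a log2 change of -1.07 (SE 0.12, limma adjusted p = 0.00058). IDP3, the peroxisomal NADP-dependent isocitrate dehydrogenase that supplies NADPH for the oxidation of unsaturated fatty acids, read 70.5, 93.4 and 108.6 in IMZ305, against 281.0, 165.6 and 305.6 in CEN.PK113-7D. This was the largest fold of the 33 genes, 2.71 (log2 change -1.44, SE 0.26, limma adjusted p = 0.00731), with no overlap. The limma call of IDP3 was lost when only the 6 aerobic arrays entered the fit (adjusted p = 0.0532).

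TES1, a peroxisomal acyl-CoA thioesterase gene, read 580.8, 508.5 and 382.1 in IMZ305, against 824.7, 891.6 and 1198.8 in CEN.PK113-7D. The groups did not overlap, and the log2 change was -0.99 (SE 0.27, limma adjusted p = 0.0407). The call lay close to the threshold and was lost under 7 of 14 alternatives, and when any 1 of 10 of the 12 arrays was left out, all but IMZ383 replicates 2 and 3, with limma adjusted p reaching 0.117 without replicate 3 of CEN.PK113-7D with air. LPX1, a peroxisomal lipase gene, read 321.5, 245.7 and 145.0 in IMZ305, against 270.9, 201.8 and 290.1 in CEN.PK113-7D, and the strains overlapped (log2 change -0.16, 95% interval -0.74 to 0.43).

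ANT1 encodes the carrier that brings ATP into peroxisomes, where medium-chain fatty acids are activated, and it was the one gene higher in every IMZ305 culture than in any control culture. It read 182.4, 186.5 and 184.8 in IMZ305, against 133.0, 135.2 and 142.7 in CEN.PK113-7D. The log2 change was 0.43 (95% interval 0.08 to 0.78) and was not called (limma adjusted p = 0.102). With only the 6 aerobic arrays in the fit it was called higher.

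No gene of organelle division was called. PEX11, the main proliferation factor, read 1023.2, 1028.9 and 980.5 in IMZ305, against 1247.4, 758.9 and 1210.2 in CEN.PK113-7D. The IMZ305 values fell inside the spread of the controls, with a log2 change of -0.05 (95% interval -0.46 to 0.36). PEX25 read 149.9, 163.8 and 169.5 in IMZ305, against 138.5, 225.5 and 239.2 in CEN.PK113-7D. PEX27, its paralog, read 25.2, 33.1 and 40.6 in IMZ305, against 23.9, 39.2 and 42.6 in CEN.PK113-7D. Both overlapped between strains and neither was called, with log2 changes of -0.28 and -0.08.

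Of the activator genes, neither was called. PIP2 read 57.4, 58.5 and 50.5 in IMZ305, against 97.0, 70.3 and 101.7 in CEN.PK113-7D, without overlap, and missed the threshold (log2 change -0.68, 95% interval -1.16 to -0.19, limma adjusted p = 0.0689). OAF1 read 86.2, 101.4 and 84.0 in IMZ305, against 80.4, 78.0 and 94.0 in CEN.PK113-7D, with overlap and a log2 change of 0.11. PIP2 was called lower in 2 of 14 alternatives, those that tested fewer probe sets, and on leaving out CEN.PK113-7D with air replicate 2 or IMZ383 replicate 2 or 3. Leaving out 1 array also brought in PEX3 (CEN.PK113-7D with air replicate 2), PEX25 (CEN.PK113-7D with air replicate 1) and INP1 (IMZ383 replicate 2), for totals of 4 to 7 genes lower.

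None of the 7 genes of receptor ubiquitination and recycling, the 2 of membrane protein import, the 5 of organelle size and number or the 2 of inheritance was called. INP1, which tethers peroxisomes in the mother cell, read 26.0 to 35.6 in IMZ305 and 42.5 to 61.3 in CEN.PK113-7D (log2 change -0.75, limma adjusted p = 0.0738). PEX3, which recruits membrane proteins, had a log2 change of -0.61 (limma adjusted p = 0.0988). In all, 12 genes did not overlap between the strains, 11 of them lower in IMZ305, or 36.4% against 31.6% of all probe sets (16.6% lower and 15% higher). Of the 5656 genes with 1 probe set each, 1164 were lower without overlap and 947 higher. The number without overlap in either direction thus shows nothing particular to peroxisome genes. Whether its direction does was not tested. The 95% interval of the log2 change lay within 1 of zero for 21 of the 33 genes. PEX22, which anchors the ubiquitin-conjugating enzyme Pex4, is the gene next to ACS1, which both engineered strains lack, and OAF1 is 2 genes away from it. INP2 lies 6 genes from ALD3 and PIP2 9 genes from ALD4, which IMZ305 lacks. Whether nearness to a deleted gene plays a part was not tested. PEX22 read 17.3, 15.8 and 20.3 in IMZ305 and 25.9, 13.8 and 29.5 in CEN.PK113-7D, with overlap.

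**Figure D2:**
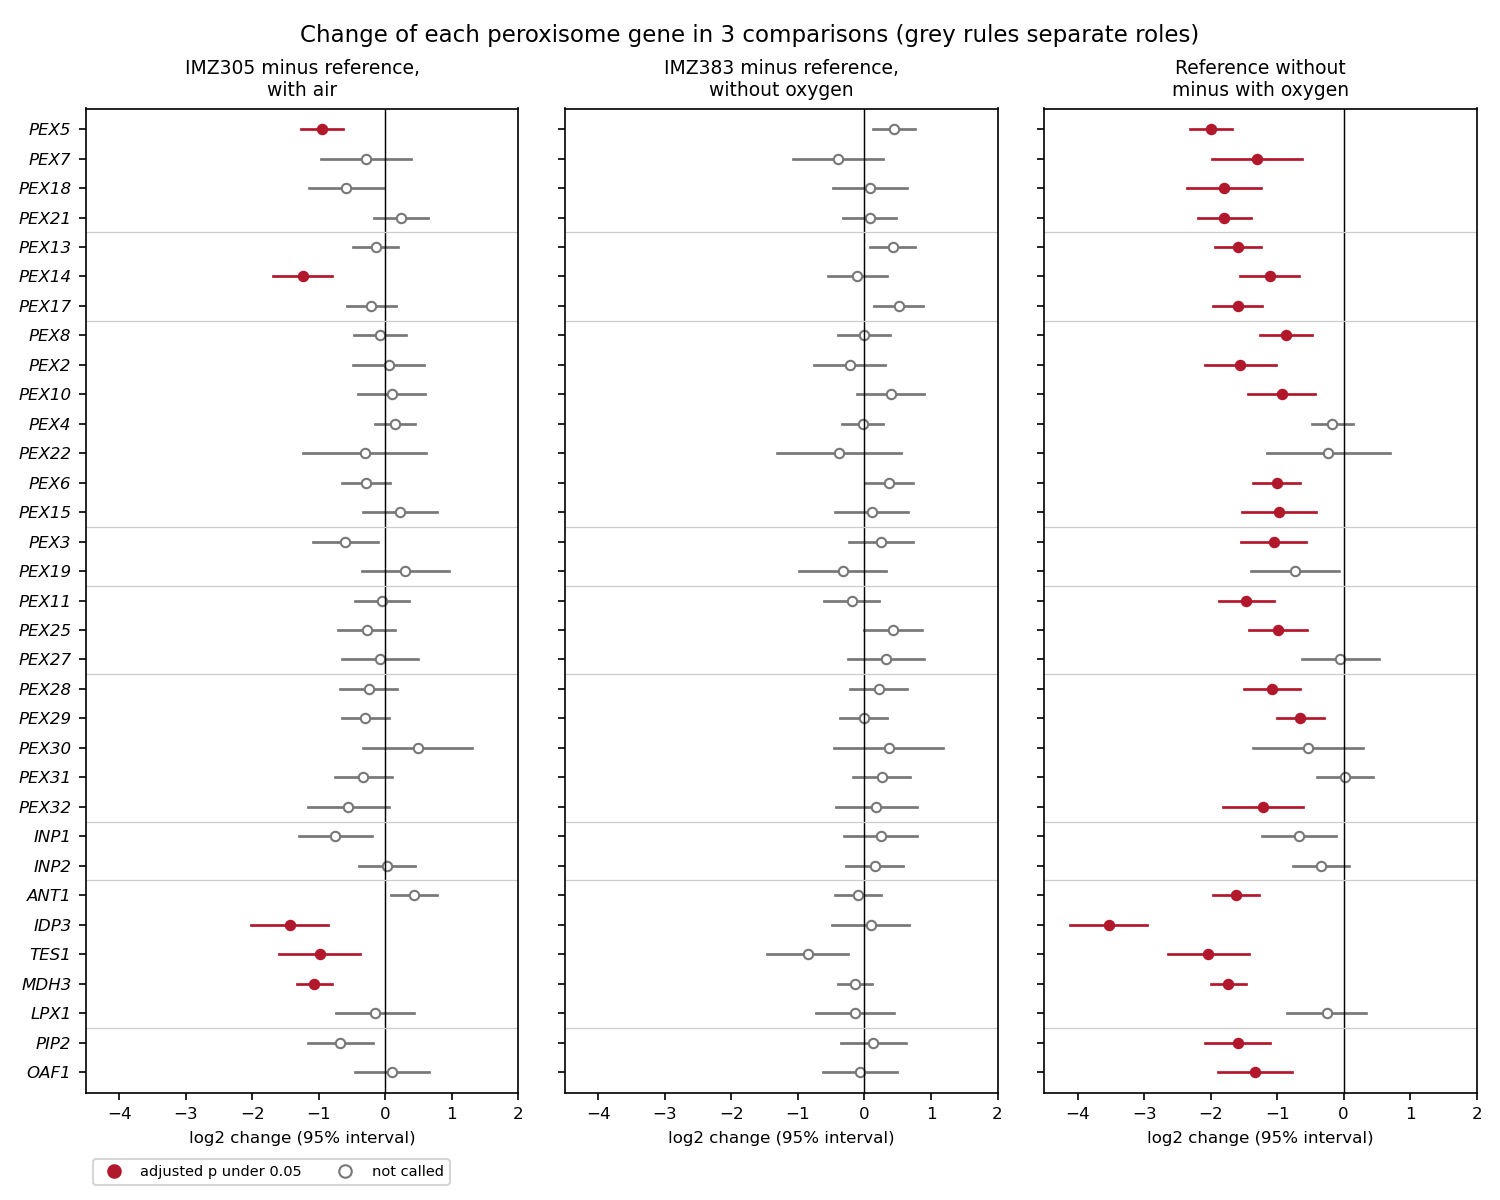
Log2 change of each gene (points) with its 95% interval (lines) in IMZ305 against CEN.PK113-7D with air, in IMZ383 against CEN.PK113-7D without oxygen, and in CEN.PK113-7D without against with oxygen. Filled points passed a limma adjusted p under 0.05: 5 in the first comparison, 0 in the second and 24 in the third, all of them lower.

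The second comparison set IMZ383 against CEN.PK113-7D, both without oxygen. By limma, 0 of the 33 genes were called at an adjusted p under 0.05, where 2.29% of all probe sets were (1.69% higher and 0.593% lower), and 5 had an unadjusted p under 0.05. The median log2 change was 0.09, against 0.06 for all probe sets. The 95% interval lay within 1 of zero on the log2 scale for 29 of 33 genes, all but PEX7, PEX22, PEX30 and TES1. The ratio of 3' to 5' signal of ACT1, a measure of RNA and labelling quality, was 1.37 to 1.47 in IMZ383 and 1.67 to 1.90 in CEN.PK113-7D without oxygen. With it as a term, PEX10 was called higher in IMZ383, and its part in the result was not tested further.

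5 genes did not overlap between the strains, 15.2% against 20.4% of all probe sets (13.4% higher and 6.98% lower). Of the 5656 genes with 1 probe set each, 922 were higher without overlap and 422 lower. PEX5 was higher in IMZ383, at 20.0, 23.2 and 16.9, against 16.4, 14.1 and 13.6 in CEN.PK113-7D without oxygen, a log2 difference of 0.44 (95% interval 0.12 to 0.76, limma adjusted p = 0.164). PEX17, a docking subunit, read 18.8, 19.6 and 25.2 in IMZ383, against 17.4, 14.5 and 12.6 in CEN.PK113-7D (log2 difference 0.52). PEX25 read 121.8, 127.9 and 147.9 in IMZ383, against 105.4, 101.3 and 89.2 in CEN.PK113-7D (log2 difference 0.43). These 3 read higher in IMZ383, and none passed the adjusted threshold.

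TES1 and LPX1 read lower in IMZ383 without overlap. TES1 had the largest difference of the 33 genes here, with 148.8, 86.2 and 168.8 in IMZ383, against 266.1, 200.2 and 240.8 in CEN.PK113-7D (log2 difference -0.86, 95% interval -1.46 to -0.25, limma adjusted p = 0.161). LPX1 read 203.9, 204.2 and 166.2 in IMZ383, against 204.6, 208.6 and 217.8 in CEN.PK113-7D (log2 difference -0.14). In IMZ305 the log2 difference to CEN.PK113-7D was -0.99 for TES1. For LPX1 it was -0.16 there, with overlap and a 95% interval of -0.74 to 0.43.

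The other enzyme, carrier and activator genes overlapped between IMZ383 and its control. MDH3 read 284.3, 272.0 and 254.8 in IMZ383 and 340.1, 307.8 and 252.8 in CEN.PK113-7D. IDP3 read 18.7, 21.6 and 27.4 in IMZ383 and 22.5, 22.5 and 18.1 in CEN.PK113-7D. ANT1 read 44.1, 33.5 and 49.1 in IMZ383 and 39.2, 54.1 and 42.1 in CEN.PK113-7D. In these 3 genes the values of the strains lay among each other. PIP2 read 33.2, 42.4 and 23.6 in IMZ383 and 32.6, 26.4 and 29.3 in CEN.PK113-7D. OAF1 read 43.1, 20.2 and 36.8 in IMZ383 and 37.1, 33.1 and 30.1 in CEN.PK113-7D. The IMZ383 cultures spread more widely than the controls in both activator genes. PEX22, the neighbour of ACS1, also spread widely in IMZ383, at 14.8, 7.7 and 26.0, against 19.4, 18.2 and 18.6 in CEN.PK113-7D.

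The third comparison set CEN.PK113-7D without oxygen against the same strain with air. Of the 33 genes 24 fell and 0 rose (limma, adjusted p under 0.05), by 1.57-fold for PEX29 to 11.6-fold for IDP3, and 19 fell at least 2-fold. That is 72.7% of the genes, where 34.2% of all probe sets were called (23.3% lower and 11% higher). With 1 probe set each, 42.6% of the 5656 genes were called (32.5% lower). In 27 genes, 81.8%, the anaerobic and aerobic groups did not overlap, all 27 lower without oxygen, against 43.4% of all probe sets (28.8% lower and 14.6% higher). Of the 5656 genes with 1 probe set each, 2212 were lower without overlap and 762 higher. The median log2 change was -1.07 for the 33 genes and -0.18 for all probe sets, a difference of -0.90. For the 5656 genes it was -0.30. This comparison shares the aerobic CEN.PK113-7D arrays with that of IMZ305 and the anaerobic ones with that of IMZ383, so the values stand side by side only as descriptions.

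All 4 import receptor genes fell. PEX5 read 16.4, 14.1 and 13.6 without oxygen, against 58.7, 63.9 and 53.6 with air, 4.00-fold lower (log2 change -2.0, SE 0.14, limma adjusted p = 7.75e-06). PEX21 read 35.3, 42.5 and 38.4 without oxygen, against 125.5, 164.5 and 116.3 with air, 3.47-fold lower. No anaerobic culture came near an aerobic one in either gene. PEX18 read 3.4, 5.0 and 3.0 without oxygen, against 15.1, 11.6 and 12.2 with air. Its anaerobic arrays all lay at or under their highest non-target control, so PEX18 fell at least 2.48-fold. PEX7 averaged 32.9 ± 5.85 without oxygen and 85.4 ± 33.4 with air (SD, n = 3), 2.48-fold lower (limma adjusted p = 0.00847).

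All 3 docking genes fell. PEX13, the membrane protein that holds the docking complex, read 20.9, 28.1 and 22.6 without oxygen, against 73.8, 72.1 and 67.4 with air (log2 change -1.59, SE 0.15). PEX17 read 17.4, 14.5 and 12.6 without oxygen, against 48.7, 43.3 and 41.2 with air (log2 change -1.59, SE 0.16). Both fell about as far and both were separate by a wide margin. PEX14 read 128.7, 124.6 and 110.2 without oxygen, against 344.1, 203.7 and 254.4 with air (log2 change -1.11, SE 0.20, limma adjusted p = 0.00204). For PEX14 the IMZ305 cultures with air, at 89.7 to 133.6, overlapped the cultures of both strains without oxygen, whereas for PEX13 and PEX17 they read above all of them.

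Of the 7 genes of receptor ubiquitination and recycling, 5 fell. PEX2, a RING ubiquitin ligase of the import machinery, read 116.6, 93.1 and 124.9 without oxygen, against 296.0, 320.3 and 363.3 with air, 2.94-fold lower (limma adjusted p = 0.000915). PEX10, also a RING gene, fell 1.91-fold, PEX6, an AAA ATPase that pulls receptors from the membrane, 2.01-fold, its membrane anchor PEX15 1.96-fold, and PEX8, which joins docking and RING complexes inside the organelle, 1.82-fold. PEX4, the ubiquitin-conjugating enzyme, and PEX22, its anchor, were not called, with log2 changes of -0.17 (95% interval -0.48 to 0.13) and -0.23 (-1.15 to 0.70).

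Of the genes of membrane protein import, PEX3 fell 2.08-fold, with 72.8 ± 8.52 without oxygen against 155 ± 47.0 with air (SD, n = 3, limma adjusted p = 0.0047). PEX19, the soluble carrier of membrane proteins that docks on Pex3, did not overlap between conditions and missed the threshold (log2 change -0.73, limma adjusted p = 0.0821).

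The division genes parted. PEX11 read 381.2, 385.0 and 373.9 without oxygen, against 1247.4, 758.9 and 1210.2 with air, 2.75-fold lower (log2 change -1.46, SE 0.18, limma adjusted p = 0.000292). PEX25 read 105.4, 101.3 and 89.2 without oxygen, against 138.5, 225.5 and 239.2 with air, 1.99-fold lower. PEX27 read 40.2, 27.2 and 33.0 without oxygen, against 23.9, 39.2 and 42.6 with air. PEX11 and PEX25 were separate between conditions and PEX27 overlapped, with a log2 change of -0.05 (95% interval -0.63 to 0.53).

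Of the 5 genes of peroxisome size, number and contact with the endoplasmic reticulum, PEX28, PEX29 and PEX32 fell by 2.11-fold, 1.57-fold and 2.32-fold. PEX30 and PEX31, which encode reticulon-like proteins of the endoplasmic reticulum, were not called. PEX31 averaged 35.5 ± 8.46 without oxygen and 34.5 ± 3.11 with air (SD, n = 3). Neither inheritance gene was called: the log2 change was -0.67 for INP1 (limma adjusted p = 0.0612) and -0.34 for INP2, the receptor that links peroxisomes to the myosin motor. INP2 read 6.9 to 8.7 without oxygen and 8.0 to 11.7 with air, close to the non-target maxima.

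The enzyme and carrier genes included IDP3 and TES1, which had the steepest falls of the genes described here. MDH3 and ANT1 fell less far than the import receptor gene PEX5. IDP3 read 22.5, 22.5 and 18.1 without oxygen, against 281.0, 165.6 and 305.6 with air, 11.6-fold lower (log2 change -3.53, SE 0.26, limma adjusted p = 1.02e-05). TES1 read 266.1, 200.2 and 240.8 without oxygen, against 824.7, 891.6 and 1198.8 with air, 4.10-fold lower (limma adjusted p = 0.000415). Both were separate by a factor well beyond the spread of the cultures. MDH3 read 340.1, 307.8 and 252.8 without oxygen, against 1066.0, 959.5 and 948.3 with air, 3.32-fold lower (limma adjusted p = 5.4e-06). ANT1 read 39.2, 54.1 and 42.1 without oxygen, against 133.0, 135.2 and 142.7 with air, 3.06-fold lower (limma adjusted p = 5.73e-05). LPX1 was the exception among them, at 204.6, 208.6 and 217.8 without oxygen, against 270.9, 201.8 and 290.1 with air, where the groups overlapped (log2 change -0.26, 95% interval -0.84 to 0.33).

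Both activator genes fell. PIP2, itself induced on oleate, read 32.6, 26.4 and 29.3 without oxygen, against 97.0, 70.3 and 101.7 with air, 3.02-fold lower (limma adjusted p = 0.000467). OAF1, which binds the fatty acid, read 37.1, 33.1 and 30.1 without oxygen, against 80.4, 78.0 and 94.0 with air, 2.52-fold lower (limma adjusted p = 0.00267). In both genes every aerobic culture read well above every culture without oxygen.

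The number called in this comparison moved with the array scaling. Under quantile normalization 20 genes fell, with PEX7, PEX10, PEX15 and PEX29 not called, and with arrays centred on their median 20 fell, with PEX8, PEX10, PEX15 and PEX29 not called. Of all 9275 probe sets, 2157 were lower as deposited, 1366 after quantile normalization and 1067 after median centring. Median centring moved the median change of all probe sets by 0.39 on the log2 scale, and the share of calls of all probe sets that were higher was 32.1% as deposited, 48.9% after quantile normalization and 67.6% after median centring. The median of the 33 genes minus that of all probe sets was -0.74 after quantile normalization and -0.90 after median centring. No gene called lower had a positive change under any scaling, whereas the uncalled PEX4, PEX22 and PEX27 did under both and INP2 and LPX1 under median centring, and the uncalled PEX31 was positive as deposited and under both. With BioB as a term 20 genes fell, with PEX7, PEX10, PEX29 and PEX32 not called, but that fit sets the 3 anaerobic arrays against replicate 3 of CEN.PK113-7D with air alone, the 1 aerobic array with a high BioB reading. 17 of the 24 kept their call under all 14 alternatives. All 24 kept it whichever array was left out, while leaving out CEN.PK113-7D with air replicate 2 brought in PEX19 and INP1, and IMZ383 replicate 2 INP1.

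**Figure D3:**
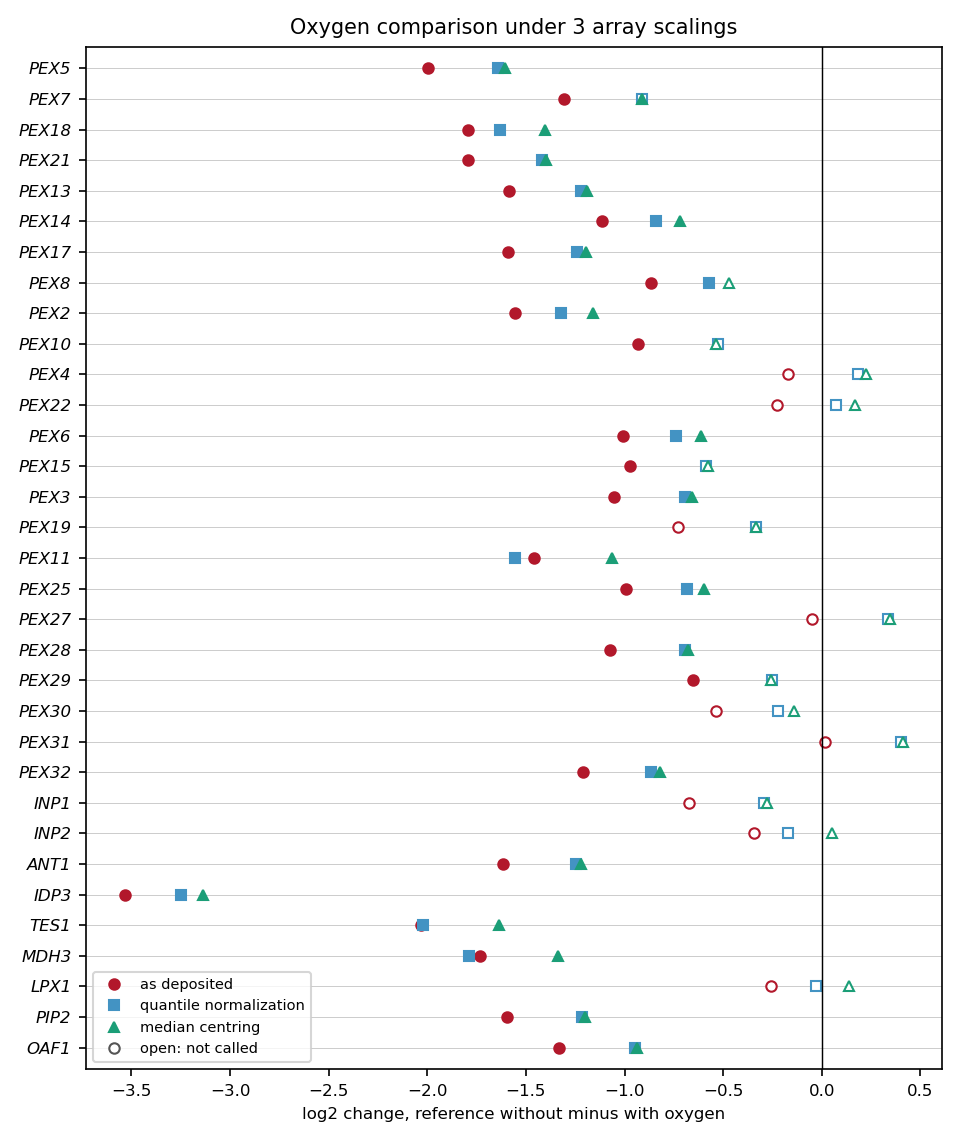
Log2 change of each gene in CEN.PK113-7D without minus with oxygen under 3 scalings of the arrays; filled symbols passed a limma adjusted p under 0.05 and open symbols did not. As deposited 24 genes were lower, and after either other scaling 20 were, with IDP3 the lowest under each. Of all 9275 probe sets, 2157 were lower as deposited, 1366 after quantile normalization and 1067 after median centring.

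The last comparison tested whether the effect of IMZ383 without oxygen differed from that of IMZ305 with air, as the interaction in the limma fit. It also holds the difference in genotype and plasmid between the strains, and it draws on all 12 arrays. 4 of the 33 genes differed, all with the more positive effect in IMZ383, which is 12.1% where 8.87% of all probe sets were called (5.92% in that direction and 2.95% in the other). With 1 probe set per gene 11.5% of the 5656 genes were called, 458 of them in that direction. The number called in either direction lies near the background and shows nothing particular to these genes. Whether their shared direction is particular to them was not tested. The 4 were PEX5, PEX14, IDP3 and MDH3, and 12 of the 33 genes had an unadjusted p under 0.05.

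PEX5 differed most firmly, with a log2 effect of 0.44 in IMZ383 and -0.95 in IMZ305, a difference of 1.39 (95% interval 0.94 to 1.84, limma adjusted p = 0.00351) that kept its call under all 14 alternatives and whichever array was left out. The sign of the effect was opposite in the strains, although only the effect in IMZ305 was called by itself. MDH3 had log2 effects of -0.14 in IMZ383 and -1.07 in IMZ305, a difference of 0.93 (95% interval 0.56 to 1.29, limma adjusted p = 0.00921).

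The other 2 calls lay nearer the threshold. PEX14 had log2 effects of -0.11 in IMZ383 and -1.24 in IMZ305 (difference 1.13, limma adjusted p = 0.0362), and IDP3 0.09 in IMZ383 and -1.44 in IMZ305 (difference 1.53, limma adjusted p = 0.0337). PEX14 lost the call under 5 of 14 alternatives and without any 1 of 9 arrays, all but CEN.PK113-7D with air replicates 1 and 2 and IMZ305 replicate 3, with limma adjusted p up to 0.0881. IDP3 lost it under 3 of 14 alternatives and without any 1 of 8 arrays, all but CEN.PK113-7D with air replicate 2, IMZ305 replicate 3, CEN.PK113-7D without oxygen replicate 1 and IMZ383 replicate 1, with limma adjusted p up to 0.0822. IDP3 averaged 22.6 ± 4.43 in IMZ383, 21.0 ± 2.54 in CEN.PK113-7D without oxygen, 90.8 ± 19.2 in IMZ305 and 251 ± 74.8 in CEN.PK113-7D with air (SD, n = 3). TES1, which read lower in both engineered strains, had a difference of 0.13 (95% interval -0.73 to 1.00).

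**Figure D4:**
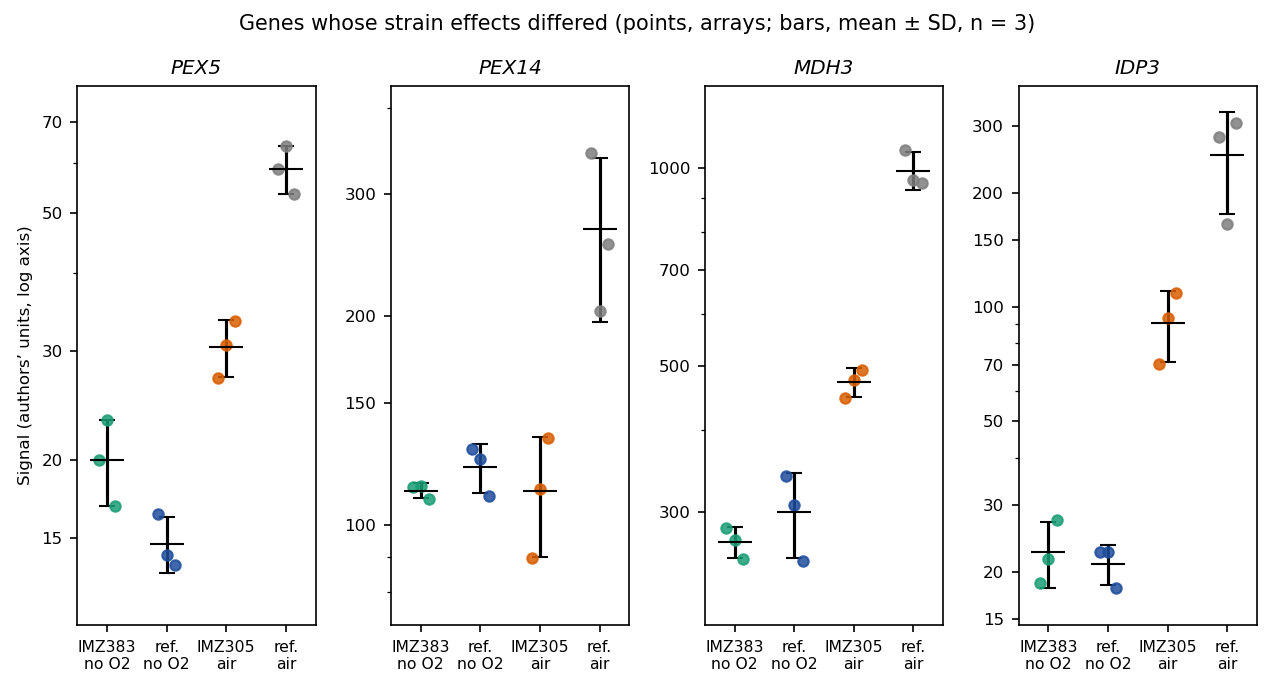
Signal (log axis, the submitters' units) of the 4 genes whose strain effects differed, on each array (points) with mean ± SD (bars, n = 3). In PEX5 the IMZ383 cultures read above their control and the IMZ305 cultures below theirs, while in the other 3 genes IMZ383 and its control overlapped.

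Genes of related function were set beside the 33. All 10 genes of the beta-oxidation core, from the acyl-CoA oxidase gene POX1 to the catalase gene CTA1, fell in CEN.PK113-7D without oxygen, with a median log2 change of -3.46. In IMZ305 with air 9 of the 10 fell, with a median of -1.28, and in IMZ383 without oxygen 2 fell, POT1 (log2 change -1.44) and SPS19 (-0.82), with a median of -0.36. The 33 genes had medians of -1.07, -0.25 and 0.09 in these comparisons. A further 22 peroxisome-associated genes had 13 lower and 1 higher in CEN.PK113-7D without oxygen (median -0.73), 5 lower and 2 higher in IMZ305 (median 0.06) and 0 called in IMZ383. Of all probe sets, 23.3% were lower and 11% higher in the oxygen comparison. In IMZ305 8.3% were lower and 6.09% higher, and in IMZ383 0.593% and 1.69%. With 1 probe set per gene, 42.6% of the 5656 genes were called in the oxygen comparison, 18.2% in IMZ305 and 3.11% in IMZ383. PEX9, a receptor close to Pex5 that is made on oleate, fell 1.75-fold in IMZ305, and ADR1, an activator of many peroxisomal genes, fell 2.16-fold. The 2 that rose in IMZ305 were CIT2, the peroxisomal citrate synthase gene, by 2.60-fold, and PCS60, a peroxisomal AMP-binding protein gene, by 1.74-fold.

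**Figure D5:**
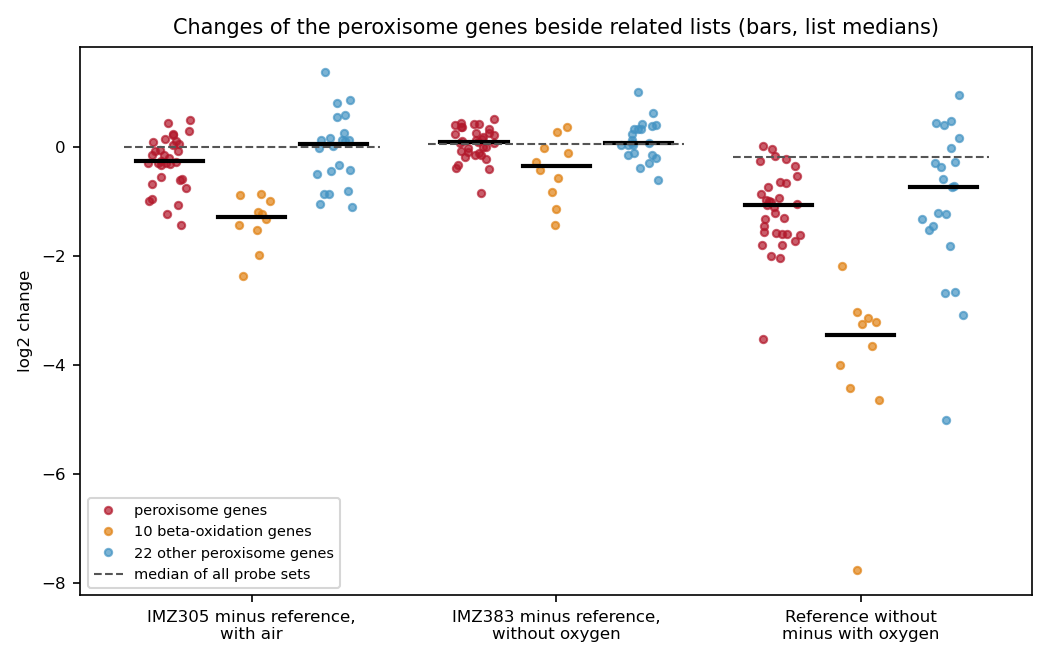
Log2 change of each gene (points) in 3 comparisons for the 33 peroxisome genes, 10 beta-oxidation genes and 22 other peroxisome-associated genes, with the list median (solid bars) and the median of all probe sets (dashed lines). The medians of the beta-oxidation genes, -1.28, -0.36 and -3.46, lie below those of the 33 genes, -0.25, 0.09 and -1.07.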

How the data were processed

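Values are the deposited series matrix, linear Affymetrix signal intensities per probe set. The software that made them is not given in the sources used here. On every array the deposited values have a trimmed mean (2% at each end) of the same size. RNA was amplified from 200 ng with a 3' kit, per the labels. Of 9335 probe sets, 60 controls were left out and 9275 tested; 6504 name 1 gene, 328 several and 2443 none in the platform annotation. All 33 symbols matched RefSeq by Entrez ID. Signals under 1.1, the 10th percentile, were set to it and taken to log2. limma 3.58.1 in R 4.3.3 fitted 1 mean per group over 12 arrays, with Benjamini-Hochberg adjustment per comparison. A gene was called at an adjusted p under 0.05, two-sided. No per-probe depth is known, and the 3 arrays per group limit the precision; p-values measure the spread between chemostat cultures. The fit was also run on simulated data with known changes. These held independent noise and no array or scaling effects, so they cannot show how such effects bear on the calls.

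The members and lists were chosen with earlier results of these data known. Every array's value is printed for the role groups of division, matrix and activator genes and for members called, up to 12 per comparison by adjusted p. Alternatives were quantile normalization, median centring, floors, a filter on low signals, 1 probe set per gene, fewer arrays, a replicate block, another variance prior, stricter thresholds, leaving members at background uncounted and leaving out each array, and, chosen after seeing the data, BioB and the ACT1 3'/5' signal ratio as terms. Promoter and protein sequences were not analysed here.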

Additional observations from a re-analysis of the deposited data

Results flagged for a closer look

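4 genes had a strain effect in IMZ383 without oxygen that differed from the effect in IMZ305 with air by the interaction test in limma. That is 12.1% of the 33 genes, near the 8.87% of all probe sets and the 11.5% of the 5656 genes. The number called thus shows nothing particular to these genes. PEX14 lost its call without any 1 of 9 arrays, and IDP3 without any 1 of 8. The differences, on the log2 scale and as IMZ383 effect minus IMZ305 effect, were 1.39 for PEX5, 1.13 for PEX14, 1.53 for IDP3 and 0.926 for MDH3. In PEX5 the effects had opposite signs, and in the other 3 genes the effect in IMZ305 was lower while that in IMZ383 was not called. The strains differ in deletions and plasmid as well as in oxygen and medium, and these cannot be told apart.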

How the results depend on the processing

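Over 26 alternatives, 3337 of 3432 results on single genes kept their side of the threshold. Of the rest, 67 lost a call and 28 gained one, and 0 called genes changed direction. Most of the 3432 were on genes not called in the main fit, so the total says little on how firm the calls were. Under all 14 alternatives other than leaving out arrays, 2 of 5 called genes in IMZ305 kept the call. So did 17 of 24 in the oxygen comparison and 1 of 4 in the difference. Leaving members at background uncounted could change none, as no gene lay at background throughout the groups compared. Among the results not called, 121 changed sign. In IMZ305, 3 genes rather than 5 fell with only the 6 aerobic arrays in the fit (1 rose, ANT1) and 3 under a rule of at least 2-fold. Of all probe sets, 8.97% and 6.06% were called there, against 14.4% in the main fit. With the filter on low signals, and with 1 probe set per gene, 7 fell, INP1 and PIP2 being added. The calls over all probe sets tested rose as well, to 20% and 20.9%. The larger number called thus shows nothing particular to peroxisome genes. Leaving out 1 array gave 4 to 7 genes lower in IMZ305, with 7.18% to 14.3% of all probe sets called. In IMZ383, 1 gene, PEX10, rose with the ACT1 ratio as a term, chosen after seeing the data. In that fit 1.35% of all probe sets were called. In CEN.PK113-7D without against with oxygen the number lower stayed between 19 and 26, while 18% to 46% of all probe sets tested were called. For the difference between strain effects, 2 genes rather than 4 were called with the replicate block and at an adjusted p under 0.01. Of all probe sets, 6.84% and 3.14% were called there. Leaving out 1 array gave 2 to 5, and the ACT1 ratio as a term gave 6, with PEX3 and PEX10 added. With that term 7.76% of all probe sets were called. The fit with BioB as a term, also chosen after seeing the data, called 2 as well, but there and in both strain comparisons it gave the same counts as leaving out CEN.PK113-7D with air replicate 3, which sets the term, and is no separate check. The replicate numbers did not pair the cultures, with correlations of same-numbered deviations between -0.03 and 0.048, and with the block IMZ305 had 4 genes lower (TES1 adjusted p = 0.0534 by limma) and the oxygen comparison 24. The share of all calls that were higher in IMZ383 was 74.1% as deposited, 60.2% after quantile normalization and 54.4% after median centring, and for the difference 66.7%, 56.5% and 48.9%. Why calls moved was not tested. PEX18 and INP2, near the non-target controls, are limited by signal.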
